A study of Mus musculus with 7 samples.

Results

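The GABA-A receptor subunits Gabra2, Gabra3, Gabra4, Gabra5, Gabrb1, Gabrb2 and Gabrg3 were followed by name through the count tables of all libraries, which gave 7 genes of the 46333 listed. Each had its own single row in every library. RNA sequencing was performed on neurons isolated from whole brains of adult il4ra fl/fl.Syn cre mice on a C57Bl/6 background. The cre+ libraries (n = 3) came from mice that carry Syn cre, a Cre recombinase under the neuronal synapsin 1 promoter. The cre- libraries (n = 4) came from littermates without it, and mice of both groups had loxP-flanked il4ra alleles. Il4ra encodes the interleukin-4 receptor alpha chain. Mice with recombination in the germline were not used. The isolation removed microglia, oligodendrocytes and astrocytes with magnetic antibodies, and vascular cells are not among its named targets. The study described its isolates as highly enriched in neurons, and stained them for endothelial and other cells by flow cytometry to assess their purity. The comparison asks which neuronal transcripts differ when the receptor is lost from neurons.

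GABA-A receptors are chloride channels that open when they bind GABA, the main inhibitory transmitter of the adult brain. Each receptor is a ring of 5 subunits, most often alpha, beta and gamma subunits together. The alpha subunit has a large part in where the receptor sits and in which drugs act on it. Receptors with alpha 2 or 3 are found at synapses, whereas those with alpha 5, or with alpha 4 or 6 and delta, lie mostly outside synapses and carry tonic inhibition. Receptors with alpha 5 are abundant in the hippocampus. Benzodiazepines bind between an alpha and a gamma subunit.

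The libraries held 68213223 to 94376841 counts, and a single member held 178 to 6553 counts in a library, so that counting error was small beside the spread between libraries. Levels are given as CPM, counts scaled to library size after normalization by the trimmed mean of M-values (TMM). Il4ra itself stood at 24.4 to 29.5 CPM in cre+ and 20.0 to 29.6 CPM in cre- libraries. Its count is over the whole gene, while Cre removes only some exons, and therefore it does not check the genotype labels. Neuronal markers were present in every library, with 18 neuron reference genes (Tubb3 the most abundant) summing to 1665–2879 CPM in cre+ and 2835–4103 CPM in cre- libraries. Endothelial markers were also abundant in these neuron preparations, at 16693–24016 CPM in cre+ and 10960–15402 CPM in cre- for 15 genes. In such bulk samples, fewer cells of a type and less RNA per cell cannot be told apart. The columns of the 2 genotypes carry differently built sample codes in the file headers, so that any handling that follows these codes cannot be told apart from genotype. The study gives the sample size of this sequencing in mice, and nothing in the labels ties a library to a litter. The p-values set the genotype difference against the spread between these libraries.

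The genes lie on 4 chromosomes. On the GRCm39 coordinates of the count tables, Gabra2 (ENSMUSG00000000560) spans chromosome 5 from 71114940 to 71253192 on the minus strand, and Gabra4 (ENSMUSG00000029211) follows at 71727092 to 71815651, also on the minus strand. Gabrb1 (ENSMUSG00000029212) starts head to head with Gabra4, at 71815456, and runs on the plus strand to 72306380. On chromosome 7, Gabrg3 (ENSMUSG00000055026, 56366213 to 57036936) and Gabra5 (ENSMUSG00000055078, 57057420 to 57159807) lie side by side on the minus strand. Gabra3 (ENSMUSG00000031343) lies on chromosome X at 71476287 to 71700454 on the minus strand between Gabre and Gabrq. Gabrb2 (ENSMUSG00000007653) lies on chromosome 11 at 42310584 to 42519855 on the plus strand, near Gabra6. No source used here says whether reads were counted by strand, and the kit does not mark it, so reads in shared exons cannot be assigned with certainty. The exons shared with genes on the other strand were short in the GENCODE annotation. For the neighbour with the longest overlap, they covered 6.28% of the exonic bases of Gabra5, 3.39% of Gabra2, 3.07% of Gabrg3 and 2.35% of Gabrb1, and 1.0% of Gabra4 for Gabrb1.

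The sequences before the start sites of Gabra2, Gabra5 and Gabrg3 are shown because these are the members that DESeq2 called lower in cre+ libraries. Each is the 250 bases upstream of a RefSeq start, 5′ to 3′ on the strand of the gene, on GRCm38.p6, an older build than that of the count tables, and the coordinates of these builds are not to be mixed. Gabra2 is chr5:71095850-71096099, Gabra5 is chr7:57510060-57510309 and Gabrg3 is chr7:57387216-57387465, all on the minus strand. Capitals mark matches, on either strand, to a STAT6-type motif (TTC and GAA with any 4 bases between them) or GGGCGG (a GC box, read as its reverse complement where so written).
Gabra2: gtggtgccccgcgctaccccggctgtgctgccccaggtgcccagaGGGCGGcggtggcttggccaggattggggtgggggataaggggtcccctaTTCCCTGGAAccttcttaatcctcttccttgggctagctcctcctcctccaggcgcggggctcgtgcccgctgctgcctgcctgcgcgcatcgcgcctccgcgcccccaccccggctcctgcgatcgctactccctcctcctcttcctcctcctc
Gabra5: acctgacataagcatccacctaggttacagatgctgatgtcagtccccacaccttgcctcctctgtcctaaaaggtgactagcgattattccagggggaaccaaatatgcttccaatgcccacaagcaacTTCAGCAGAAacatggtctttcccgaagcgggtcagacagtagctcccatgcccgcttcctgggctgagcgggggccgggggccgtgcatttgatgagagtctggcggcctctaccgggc
Gabrg3: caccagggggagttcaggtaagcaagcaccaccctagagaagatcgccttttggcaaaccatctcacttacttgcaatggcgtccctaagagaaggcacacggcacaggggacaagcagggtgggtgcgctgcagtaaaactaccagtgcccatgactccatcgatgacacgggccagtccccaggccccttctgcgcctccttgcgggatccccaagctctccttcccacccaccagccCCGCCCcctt
The Gabra2 sequence holds a STAT6-type match 155 bases before the start and a GC box further upstream. In Gabra5 the STAT6-type match begins 120 bases before the start, and in Gabrg3 a GC box lies 10 bases before it.

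STAT6 is the transcription factor that the interleukin-4 receptor activates, and for this reason its letters were searched in the 300-base windows (250 before and 50 after a start) of all members. RefSeq gave 11 windows for the 7 genes. The STAT6-type motif was found in Gabra2, Gabra5 and Gabra3, and not in the windows of Gabra4, Gabrb1, Gabrb2 and Gabrg3. Of 32851 promoter windows of the same length, 6.95% hold it. GGGCGG occurred in Gabra2, Gabra4, Gabrg3 and 1 window of Gabrb2, against 35.7% of all windows. TATAAA occurred in Gabra3 and in 1 window of Gabrb2, where it lies 30 bases before the start, against 13.6% of all. TGACGTCA (the cAMP response element, held by 1.79% of all windows) and GCGTGGGCG (the EGR motif, held by 0.612%) were in none of the 11. The window of Gabra2 was GC-rich (70% G and C), those of Gabrg3 (61%) and Gabra5 (56.7%) were nearer to the median of all windows (52.7%), and the windows of Gabra3 were poorer (39.3% and 43%). A match describes letters in a window and does not show binding.

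Of the alpha subunits, Gabra5, which encodes the alpha 5 subunit of extrasynaptic receptors, showed the largest difference between genotypes among the members. Its level was 4.48, 8.0 and 8.17 CPM in cre+ replicates 1 to 3, against 21.8, 15.5, 14.7 and 9.30 CPM in cre- replicates 1 to 4. All 3 cre+ libraries were below all 4 cre- libraries, although cre- replicate 4 came close to cre+ replicates 2 and 3. Cre+ averaged 6.88 ± 2.09 CPM (SD, n = 3) against 15.3 ± 5.13 CPM in cre- (SD, n = 4), a ratio of 0.449. The log2 fold change was -1.16 ± 0.32 (SE), with a 95% interval from -1.89 to -0.42 and an adjusted p of 0.117 by edgeR's quasi-likelihood test with Benjamini-Hochberg adjustment.

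Gabra2, the alpha 2 subunit of synaptic receptors, stood at 6.84, 12.7 and 12.9 CPM in cre+ and at 21.0, 27.0, 20.6 and 12.1 CPM in cre- libraries. Cre- replicates 1 to 3 were above every cre+ library, but cre- replicate 4 lay within the cre+ range. The log2 fold change was -0.90 ± 0.31 (SE), 95% interval -1.61 to -0.19, adjusted p = 0.172 by edgeR.

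Gabra4, whose product pairs with delta in tonic receptors of thalamus and dentate gyrus, was read at 5.64, 15.9 and 12.9 CPM in cre+ and 31.2, 22.0, 20.2 and 9.91 CPM in cre- libraries. It had the widest cre- range of the members, 3.15-fold from the lowest to the highest library, and the genotypes overlapped through cre- replicate 4. Its log2 fold change was -0.86 ± 0.43 (SE), 95% interval -1.85 to 0.13, adjusted p = 0.312 by edgeR.

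Gabra3, an alpha subunit that is prominent in monoaminergic and brainstem neurons, stood at 5.72, 14.0 and 14.8 CPM in cre+ and 27.1, 19.4, 14.0 and 12.2 CPM in cre- libraries. Only cre+ replicate 1 fell outside the cre- range, cre+ replicate 3 lay above cre- replicates 3 and 4, and cre+ replicate 2 was level with cre- replicate 3. The log2 fold change of -0.66 ± 0.38 (SE) had a 95% interval that spans 0, from -1.52 to 0.21, with an adjusted p of 0.373 by edgeR.

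The beta subunits carry part of the GABA binding site and the contacts for intracellular regulation. Gabrb2, the most abundant member, was read at 16.5, 36.6 and 36.8 CPM in cre+ and 74.3, 61.9, 44.3 and 32.2 CPM in cre- libraries. Cre- replicates 1 to 3 exceeded all cre+ libraries, and cre- replicate 4 was below cre+ replicates 2 and 3. Its log2 fold change was -0.83 ± 0.35 (SE), 95% interval -1.63 to -0.03, adjusted p = 0.237 by edgeR.

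Gabrb1 was the member with the smallest difference. It stood at 6.75, 19.6 and 19.7 CPM in cre+ and at 29.7, 19.3, 19.4 and 11.3 CPM in cre- libraries, so that cre+ replicates 2 and 3 were above 3 of the 4 cre- libraries. With a log2 fold change of -0.38 ± 0.42 (SE), the 95% interval ran from -1.33 to 0.58 (adjusted p = 0.670 by edgeR), and a lower, an equal or a higher level could not be told apart.

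Gabrg3, a gamma subunit of low abundance, was the other member without overlap. It was read at 2.01, 3.30 and 3.18 CPM in cre+ and 6.52, 5.57, 6.90 and 3.77 CPM in cre-. The gap between cre+ replicate 2 and cre- replicate 4 was small beside the cre- range. Cre+ averaged 2.83 ± 0.71 CPM (SD, n = 3), cre- 5.69 ± 1.40 CPM (SD, n = 4), a ratio of 0.497. The log2 fold change was -1.01 ± 0.30 (SE), 95% interval -1.70 to -0.32, adjusted p = 0.134 by edgeR.

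**Figure D1:**
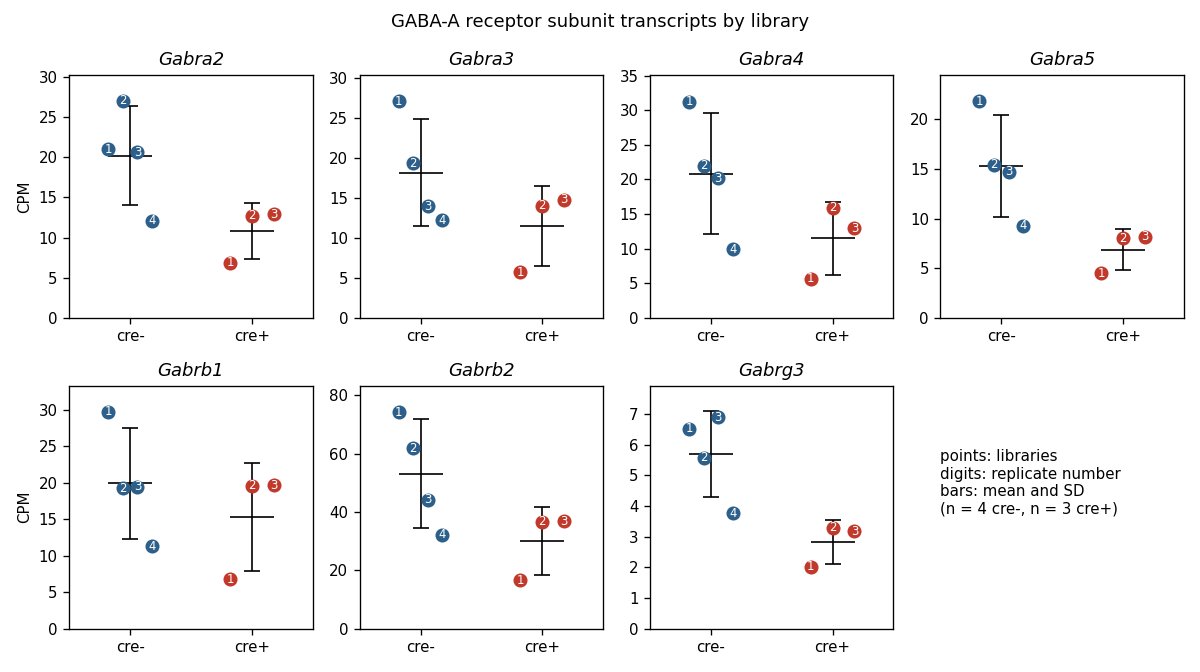
Level of each of the 7 subunit transcripts (y axis, TMM-scaled CPM, from 0) in every library of cre- (blue, n = 4) and cre+ (red, n = 3), with the replicate number inside each point and bars for the mean and SD. Only Gabra5 and Gabrg3 have all cre+ points below all cre- points, cre+ replicate 1 is the lowest point in every panel, and cre- replicate 4 is the lowest of its group in every panel.

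Counted together, 7 of 7 members had a negative log2 fold change, as did 54% of the 21542 genes tested. Their median was -0.86, against -0.04 over all genes. edgeR called 0 of the 7 at an adjusted p under 0.05, and it called 0% of all genes lower. At an unadjusted p under 0.05 edgeR had 4 of 7 lower (Gabra2, Gabra5, Gabrb2 and Gabrg3), against a background of 9.75%. limma-voom also called 0 members, and it called 0 of all genes higher or lower. DESeq2, the tool of the study, called 3 of 7 lower, against 5.48% of the genes to which it gave an adjusted p. These were Gabra5 (adjusted p = 0.0101), Gabrg3 (0.0173) and Gabra2 (0.0450). The adjusted p of the other members by DESeq2 was 0.0939 for Gabrb2, 0.157 for Gabra4, 0.244 for Gabra3 and 0.578 for Gabrb1. The members without overlap between genotypes, Gabra5 and Gabrg3, were 2 of 7, against 9.72% of all genes. The study picked Gabra2, Gabra5 and Gabrg3 from these same libraries, and their calls are not independent evidence. Leaving out single libraries changed which members DESeq2 called. Gabra5 was called in 6 of the 7 omissions and lost only without cre+ replicate 1, where DESeq2 called 0 members and the log2 fold change of Gabra5 was -0.92. Without cre+ replicate 3 all 3 calls stayed, and without cre+ replicate 2 Gabra5 and Gabrg3 were called. Without cre- replicate 1, 2 or 3 only Gabra5 was called, while Gabrg3 stood at -0.93, -1.01 and -0.90 and Gabra2 at -0.87, -0.72 and -0.89. Without cre- replicate 4 DESeq2 called 5 members, with Gabra4 and Gabrb2 added. Over all genes DESeq2 called 895 lower with every library, and 512, 620 and 1318 without cre+ replicates 1, 2 and 3. Without cre- replicates 1 to 4 it called 746, 348, 374 and 1047 of all genes lower.

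The members varied together across libraries, within as well as between genotypes. Cre+ replicate 1 was the lowest of all libraries in 7 of 7 members, as it was in 25.7% of all genes, and the members summed to 47.9 CPM there, against 110.2 and 108.4 CPM in cre+ replicates 2 and 3. Cre- replicate 1 was the highest in 5 of the members, with a sum of 211.8 CPM, followed by 170.6, 140.1 and 90.8 CPM in cre- replicates 2 to 4. The summed level of the members in cre- replicate 4 was therefore below that of 2 of the 3 cre+ libraries.

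The 18 neuron reference genes differed with the same sign as the members. Their mean log2 CPM lay below the cre- mean by 1.20, 0.49 and 0.32 in cre+ replicates 1 to 3, and among cre- libraries it was lowest in replicate 4, at -0.30. Of the 18, all had negative log2 fold changes, with a median of -0.62. DESeq2 called 5 of the 18 lower, against 5.48% of all genes. edgeR called 0, with 14 lower at an unadjusted p under 0.05, against 9.75% of all genes. The mean log2 CPM of the 18 genes was 5.92 to 6.81 in cre+ and 6.83 to 7.47 in cre- libraries, without overlap. To express the members per neuronal transcript, the libraries were also scaled so that the mean log2 CPM of these genes was equal in all. Such scaling also takes out any genotype difference that these genes share, and the 2 cannot be told apart. It moved the median log2 fold change over all genes to 0.66, and 3745 genes were then called higher and 53 lower by edgeR.

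On this scale the log2 fold changes of the members came to a median of -0.22, with 6 of 7 negative (16.6% of all genes were negative) and 0 called (0.246% of all genes were called lower). The smallest unadjusted p was 0.138, for Gabra5. The value was -0.49 ± 0.32 (SE) for Gabra5, with an adjusted p of 0.262 by edgeR, -0.34 ± 0.37 for Gabrg3 and -0.28 ± 0.32 for Gabra2. Gabra4 (-0.22), Gabrb2 (-0.20) and Gabra3 (-0.05) were closer to 0, and Gabrb1 turned positive at 0.23 ± 0.32 (adjusted p = 0.634 by edgeR). Relative to the neuron reference mean, only Gabra5 kept its genotypes apart, as 1.17% of all genes did. Its log2 values against the cre- mean were -0.50, -0.38 and -0.52 in cre+ and 0.23, 0.18, -0.06 and -0.36 in cre- libraries, so that cre+ replicate 2 and cre- replicate 4 nearly met.

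**Figure D2:**
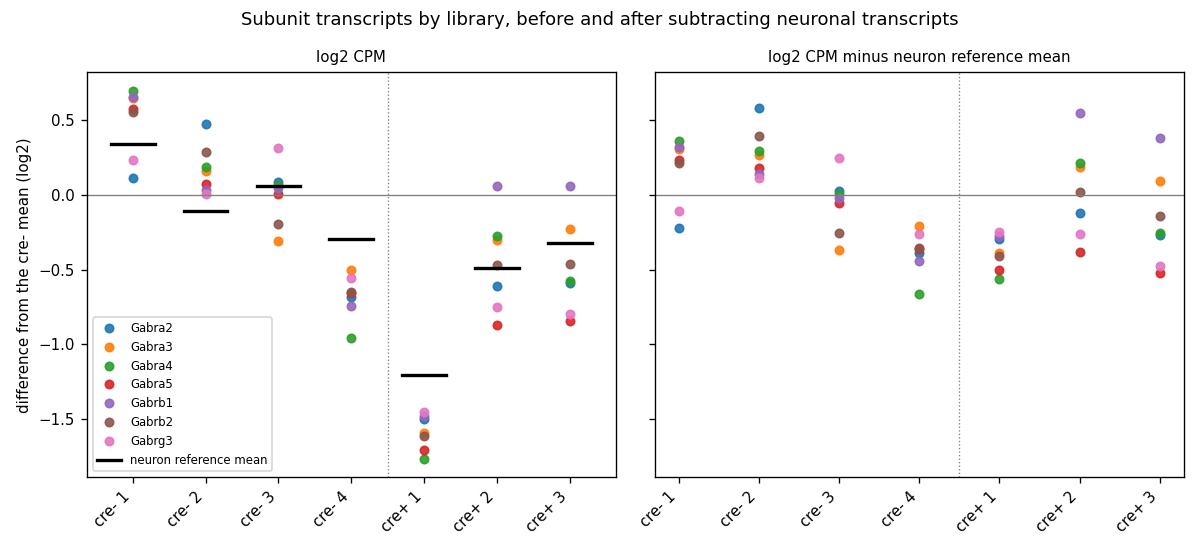
Difference of each member's log2 CPM from its cre- mean (y axis, log2 units) in each of the 7 libraries (x axis), as measured (left, with the mean of 18 neuron reference genes as black bars) and after subtracting that mean (right). On the left all members are lowest in cre+ replicate 1, where they lie below the black bar. On the right the genotypes overlap for every member but Gabra5.

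Levels per length gave the order of the members. In RPKM, the CPM divided by the kilobases of annotated exons, the cre- means were 4.84 for Gabrb2, 2.63 for Gabra3, 2.25 for Gabra2, 2.07 for Gabra4, 1.70 for Gabra5, 1.18 for Gabrb1 and 0.477 for Gabrg3. The exon lengths came from an annotation with longer gene spans than the count tables. Gabrb1 ends there at 72319431, against 72306380 in the count tables, and Gabra4 starts at 71721738, against 71727092. Bases that were not counted would lower the RPKM of such genes, and the effect on the order was not tested. At the ends of this order, Gabrb2 was above Gabra3 in 7 of 7 libraries and Gabrb1 above Gabrg3 in 7 of 7. In between, neighbours changed places between libraries, as Gabra3 was above Gabra2 in 5 of 7, Gabra2 above Gabra4 in 5 of 7, Gabra4 above Gabra5 in 6 of 7 and Gabra5 above Gabrb1 in 5 of 7. In cre+ libraries the means were 2.73, 1.67, 1.21, 1.14, 0.763, 0.909 and 0.237 RPKM in the same order of genes, so that Gabrb1 stood above Gabra5. When lengths came from the longest transcript instead, Gabra2 moved from place 3 to place 5 and Gabra4 and Gabra5 each moved up by 1 place. Of the other subunits read here, Gabrd was the most abundant, with a cre- mean of 2.64 RPKM.

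The balance among the alpha members was compared as shares of the summed RPKM of Gabra2, Gabra3, Gabra4 and Gabra5, a measure that does not depend on library scaling. Gabra5 made up 18.7%, 14.99% and 15.7% of the sum in cre+, compared with 20.5%, 17.6%, 20.5% and 20.1% in cre-. The share was smaller on average in cre+ (16.5% ± 2.00, SD, n = 3) than in cre- (19.7% ± 1.38, SD, n = 4), but cre+ replicate 1 lay above cre- replicate 2, so that the genotypes overlapped. The mean share of Gabra3 was 34.2% in cre+ and 30.5% in cre-, that of Gabra4 23.4% and 23.3%, and that of Gabra2 25.9% and 26.5%, all with overlap. With longest-transcript lengths the mean share of Gabra5 was 17.7% in cre+ and 21.2% in cre-, again with overlap.

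**Figure D3:**
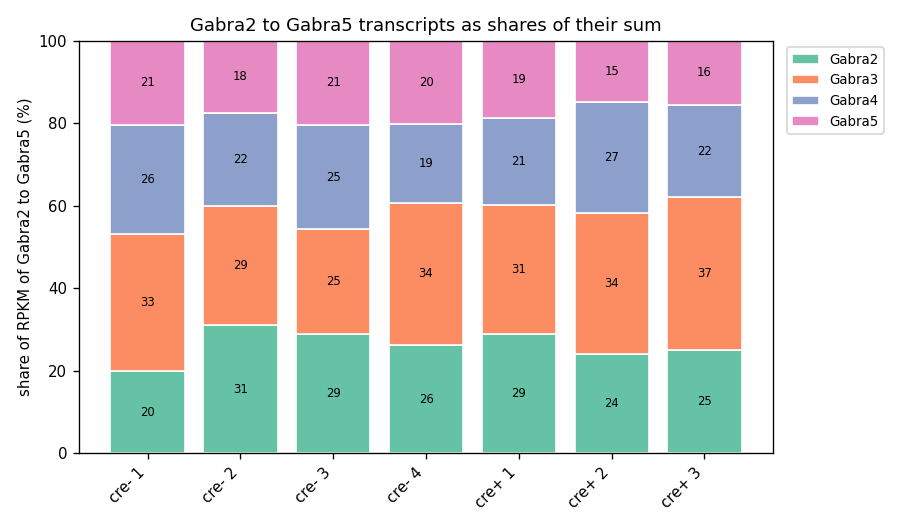
Share of each alpha member in the summed RPKM of Gabra2 to Gabra5 (y axis, percent) in each library (x axis, cre- replicates 1 to 4 and cre+ replicates 1 to 3). The share of Gabra5 runs from 14.99% to 18.7% in cre+ and from 17.6% to 20.5% in cre- libraries.

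Among 9 other subunit genes of the family, 6 could be tested and 4 of these had negative log2 fold changes, against 54% of all genes. Their median was -0.24, against -0.04 over all genes. When scaled to the neuron reference, 2 were negative (16.6% of all genes) and the median was 0.42 (0.66 over all genes). Neither edgeR nor DESeq2 called any of the 6, where DESeq2 called 5.48% of all genes lower and 6.70% higher. By edgeR, 0 had an unadjusted p under 0.05, against 9.75% of all genes for lower levels. DESeq2 gave no adjusted p to Gabra6 and Gabrr2 and so could not call these. Gabrd, the delta subunit of tonic receptors, stood at 1.39, 10.9 and 9.21 CPM in cre+ and 20.6, 16.3, 21.4 and 7.71 CPM in cre- libraries, with cre- replicate 4 inside the cre+ range (log2 fold change -1.20 ± 0.63, SE). Gabre, the epsilon subunit, had a log2 fold change of -1.05 ± 0.47 (SE), with overlap. The others were Gabrq (-0.19 ± 0.62), Gabrr2 (-0.29 ± 0.54), Gabrg1 (0.29 ± 0.39) and Gabra6 (0.61 ± 1.60, listed at 0 in cre+ replicate 1 and cre- replicate 1). The 95% intervals of all 6 spanned 0. Gabrp, Gabrr1 and Gabrr3 were too low to be tested.

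**Figure D4:**
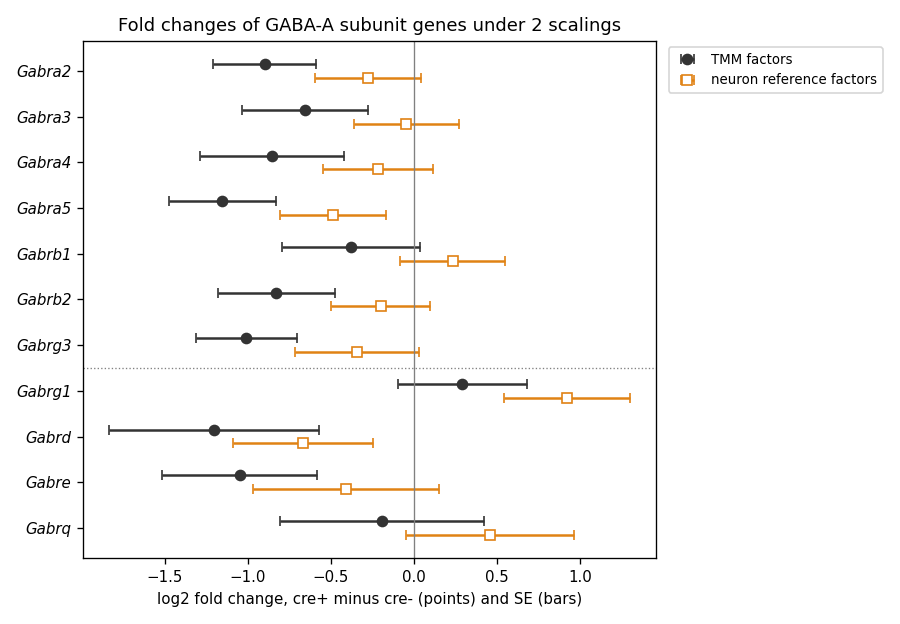
Log2 fold change, cre+ minus cre- (x axis), with SE bars, of the 7 members (above the dotted line) and of the other subunits with a cre- mean of at least 1 CPM (below), under TMM scaling (black circles) and under scaling to neuron reference genes (orange squares). Under TMM all 7 members are negative, from -1.16 (Gabra5) to -0.38 (Gabrb1), and under the neuron reference they lie between -0.49 and 0.23.

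The rest of the GABA pathway was read from 3 lists, with medians and signs from edgeR and the values of single genes from DESeq2 (log2 fold change ± SE). Of 7 genes for synthesis and transport of GABA, 4 had negative log2 fold changes (median -0.30), against 54% of all genes. DESeq2 called 1 of them lower (5.48% of all genes), Gad2, a GABA-synthesizing enzyme (-0.55 ± 0.20, adjusted p = 0.0476). Gad1, the other synthesizing enzyme (-0.63 ± 0.25), and Slc32a1, the vesicular GABA transporter (-0.45 ± 0.23), were not called. The 3 positive genes, Slc6a13 (0.92 ± 0.34), Slc6a11 (0.95 ± 0.73) and Abat (0.17 ± 0.19), were not called either. Of the 7, 0 were lower without overlap, against 9.72% of all genes. Higher without overlap was 1, Slc6a13, against 8.94% of all genes. Of 19 genes for receptor anchoring and trafficking, 10 were negative (median -0.10), again near the share of all genes. DESeq2 called 3 of the 19 lower, against 5.48% of all genes. These were Shisa7, an auxiliary subunit of GABA-A receptors (-1.31 ± 0.32), Lhfpl4, which links receptors to neuroligin 2 (-0.65 ± 0.20), and Nlgn2, neuroligin 2 of inhibitory synapses (-0.51 ± 0.17). The same 3 were lower without overlap between genotypes, against 9.72% of all genes. Higher without overlap were 4 of the 19, against 8.94% of all genes. DESeq2 called 1 of them higher, against 6.70% of all genes, namely Rdx, radixin, which anchors alpha 5 receptors to actin (0.32 ± 0.10). Of the chloride transporters that set the reversal potential of these receptors, Slc12a5 (KCC2) was lower by DESeq2 (-1.07 ± 0.35, adjusted p = 0.0260), and Slc12a2 (NKCC1) was not called (0.72 ± 0.34). edgeR called 0 genes in these lists. At an unadjusted p under 0.05 it had 2 lower and 1 higher of the 7, 5 lower and 3 higher of the 19, and 1 lower of the 2 chloride transporters. Of all genes, 9.75% were lower at that threshold. The share of all genes that were higher was not counted, so the counts of higher genes have no background to be read against. When scaled to the neuron reference, the median of all genes was 0.66 and 16.6% of all genes were negative. The pathway medians on this scale were 0.37 for synthesis and transport (0 of 7 negative) and 0.64 for anchoring and trafficking (1 of 19 negative). They were thus not above that of all genes. Gad2, Lhfpl4 and Nlgn2 came to 0.09, 0.02 and 0.16, and Shisa7 and Slc12a5 stayed negative at -0.70 and -0.43.

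Markers of neuron classes and of other cells were read beside the members. Of all genes, DESeq2 called 5.48% lower. Of 10 excitatory neuron markers, Slc17a7 the most abundant, all 10 were negative (median -1.14, 5 called lower by DESeq2, summed level 124–477 CPM in cre+ and 442–941 CPM in cre-). Of 12 inhibitory neuron markers, Dlx1 the most abundant, 11 were negative (median -0.55, 3 called, 504–786 and 807–1000 CPM). The 9 striatal markers, led by Ppp1r1b, were all negative (median -0.97, 1 called, 361–685 and 377–1022 CPM), and the 8 cerebellar granule cell markers, led by Zic2, had 5 negative and 3 positive values (median -0.28, 2 called, 363–480 and 378–475 CPM).

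Endothelial, mural, astrocyte, oligodendrocyte, oligodendrocyte precursor and microglia markers had positive medians. All 15 endothelial markers, led by Slc2a1, were positive (median 0.64), and DESeq2 called 11 higher, against 6.7% of all genes. Of 11 mural markers, led by Rgs5, 10 were positive (median 0.73, 7 called, 619–874 CPM in cre+ and 411–591 CPM in cre-, Tagln at 0 in a library). The 11 astrocyte markers, led by Slc1a2, were positive (median 0.84, 4 called, 445–693 and 267–487 CPM), as were the 9 oligodendrocyte markers, led by Mbp (median 0.82, 2 called, 525–1450 and 461–879 CPM). Of the 7 oligodendrocyte precursor markers, led by Vcan, 6 were positive (median 0.18, 190–486 and 269–547 CPM). The 9 microglia markers, led by Csf1r, were all positive (median 0.37, 685–1076 and 174–1615 CPM). In both of these lists DESeq2 called 0, and 0 had an unadjusted p under 0.05 by edgeR. edgeR called 0 in every marker list. At an unadjusted p under 0.05 it had 6 excitatory, 6 inhibitory, 1 striatal and 2 granule cell markers lower, against 9.75% of all genes. Higher at that threshold were 12 endothelial, 8 mural, 6 astrocyte and 3 oligodendrocyte markers. The share of all genes was not counted for this direction, so these counts have no background to be read against. When scaled to the neuron reference, the medians were -0.55 for excitatory and -0.30 for striatal markers, 0.08 for inhibitory and 0.27 for granule cell markers, and 1.37, 1.47, 1.42 and 1.38 for endothelial, mural, astrocyte and oligodendrocyte markers. Those of the oligodendrocyte precursor and microglia markers were 0.80 and 1.04, and the median of all genes on this scale was 0.66. With the mean log2 CPM of the endothelial and mural markers, 7.34 to 7.85 in cre+ and 6.78 to 7.15 in cre-, as a covariate, the members' log2 fold changes ran from -0.08 (Gabrb1) to -1.07 (Gabra5), with a median of -0.58 and adjusted p from 0.848 to 0.990 by edgeR. The covariate did not overlap between genotypes, and the 2 cannot be told apart.

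The profile of each member over the 7 libraries was compared with those of 15978 genes, by the root mean square difference of centred log2 CPM. Closest to Gabra5 were Pianp (0.0886) and Kcns2 (0.110), a modulatory potassium channel subunit. Gabrb2 had Erc2 (0.0977) and Syt1 (0.113), an active zone protein and the calcium sensor of synaptic vesicles. Gabrb1 had Nkain2 (0.0949) and Tenm3 (0.138), Gabrg3 had Jph4 (0.103) and Elapor1 (0.107), and Gabra3 had Pcdh20 (0.106) and Cdh12 (0.119). Gabra2 had Spats1 (0.112) and Fbxo27 (0.120), and Gabra4 had Mctp1 (0.146) and Gpr158 (0.153). Among the 21 pairs of members, Gabra3 and Gabrb2 were closest (0.130), then Gabra4 and Gabrb2 (0.194) and Gabra5 and Gabrg3 (0.201), and Gabrb1 and Gabrg3 were farthest apart (0.430).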

How the data were processed

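RNA was sequenced as poly(A) libraries (NEBNext Ultra II, paired reads) from isolated neurons (3 cre+ and 4 cre- libraries). The deposited tables hold raw counts per gene, which the authors made, per the submitters' processing notes, with fastp, FastQC, STAR, SAMtools and StringTie on GRCm39; no source used here gives versions. Normalized tables from the same counts were not used. Of 46382 rows, 49 repeated identical rows were dropped. No pair of libraries agreed within sampling noise (lowest chi-square per degree of freedom 68.6).

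Counts were tested with edgeR 4.0.16 (quasi-likelihood, TMM, filterByExpr, genotype only, two-sided, Benjamini-Hochberg adjustment over 21542 genes, threshold 0.05) in R 4.3.3. DESeq2 1.42.0, the study's tool, and limma-voom (limma 3.58.1) were alternatives, with other scalings, filters, a replicate block, a vascular covariate and each library left out. The scripts were tested on simulated data. With no gene changed, edgeR made 0 false calls and DESeq2 made 30 over 21542 genes. With 200 genes changed 2-fold, edgeR recovered 34.5% with 10 false calls. DESeq2 recovered 51.5% of them with 86 false calls. CPM used TMM factors, with a prior count of 2 for log2 CPM. Lengths and overlaps came from GENCODE M39, and promoters from RefSeq (GRCm38.p6; all 7 members matched).

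The members and gene lists were chosen with earlier results of these data known. Besides the members, the rule for named genes took the other subunits, the 6 pathway genes with the smallest edgeR p and those called by DESeq2, the most abundant marker of each list and any at 0, and the 2 nearest profiles of each member (mean CPM of at least 1). Gad1, Slc32a1, Slc12a2, Slc6a13, Slc6a11 and Abat were added after their values were seen. Some genes of the subunit and marker lists are not reported here. The shares among Gabra2 to Gabra5 were defined after the data were seen.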

Additional observations from a re-analysis of the deposited data

How the results depend on the processing

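The number of members called lower was 0 with edgeR in all of its alternatives (other scalings and filters, replicate block, vascular covariate, and 0 to 0 when each library was left out) and 0 with limma-voom. Few genes of any kind were called in these settings. Of all genes, edgeR called 53 lower with the neuron reference, 2 without cre+ replicate 1 and 0 in its other alternatives, and limma-voom called 0. The number of members called lower was 3 with DESeq2 and 3 with DESeq2 on library totals, where 895 and 1773 of all genes were called lower. The cause of the difference between tools was not tested. With DESeq2 and each library left out in turn, which like DESeq2 on library totals was chosen after seeing the data, it was 2 without cre+ replicate 2 and ran from 0 (without cre+ replicate 1) to 5 (without cre- replicate 4). The members' median log2 fold change of -0.86 became -0.22 with scaling to the neuron reference, where Gabrb1 reversed to 0.23. The median of all genes was 0.66 on that scale. Leaving out each library gave medians from -1.08 to -0.54 with edgeR and from -1.08 to -0.53 with DESeq2, in both cases nearest to 0 without cre+ replicate 1. There edgeR gave -0.34 for Gabra3, -0.53 for Gabra4, -0.03 for Gabrb1 and -0.54 for Gabrb2, and without cre- replicate 1 -0.40 for Gabra3 and -0.12 for Gabrb1. Gabrb1 was -0.60 without cre+ replicate 2 or 3 and -0.58 without cre- replicate 4. Scaling by library totals moved the median of all genes from -0.04 to -0.16. Over 25 alternatives, each member other than Gabrb1 stayed negative in 25 and Gabrb1 in 24. With the replicate number as a block, log2 fold changes ran from -0.67 to -1.35 (median -1.13) and 0 members were called. The deviations of same-numbered libraries correlated at -0.09, 0.01 and 0.19, and not every library correlated best with its own number. Cre- replicate 4 had no partner. With so few libraries, these values cannot decide whether the numbers mark pairs. Counting error was small beside the spread between libraries for every member.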
